A study of Rattus norvegicus with 8 samples.

Results

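The genes described here encode catalase (Cat), the superoxide dismutases Sod1, Sod2 and Sod3, the glutathione peroxidases Gpx1 and Gpx4, and the peroxiredoxins Prdx1, Prdx3, Prdx5 and Prdx6. They were taken by symbol from the authors' deposited table, in which each of the 10 symbols matched exactly 1 of 15115 gene rows. The samples were livers of wild-type male F344 (Fischer) rats labelled 1 year old. In the CDAA_PTS group the rats ate CDAA, a diet defined in L-amino acids and deficient in choline that is used to bring about fatty liver and hepatocellular carcinoma, and their feed also held pterostilbene, a dimethylated relative of resveratrol, at 1.34 g per kg of diet. They had already received pterostilbene in a choline-sufficient diet during the first 3 weeks of the 60-week study. In the CDAA group the rats ate the choline-deficient diet with no compound added, after the same choline-sufficient diet alone. The labels list 4 sequenced rats for each diet out of 6 per group in the study, and both groups carried the choline deficiency, so neither is a healthy liver. Tumours, nodules or tumour-free tissue were all collected, and the sources used here do not say which of them went into each library.

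Aerobic cells remove reactive oxygen in steps. Superoxide dismutases turn superoxide into hydrogen peroxide, and catalase, glutathione peroxidases and peroxiredoxins turn the peroxide into water. The enzymes are spread over the compartments of the cell: catalase sits in peroxisomes, Sod1, Gpx1, Prdx1 and Prdx6 mainly in the cytosol, Sod2 and Prdx3 in mitochondria, Sod3 outside the cell, and Gpx4 and Prdx5 in several places. The liver is known for very high catalase and glutathione peroxidase activity, and oxidative damage is a known feature of choline-deficient fatty liver.

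The comparison of CDAA_PTS with CDAA asks what pterostilbene did to these genes on the choline-deficient diet. Pterostilbene-fed livers had nearly the same mRNA level of every one of the 10 enzymes as livers on the diet alone, and none of the 10 passed the test. The largest difference was that of Sod1, with a log2 fold change of 0.16 in the authors' deposited table, and 5 genes lay above 0 and 5 below. The authors' table holds the results of 3 tools, edgeR and DESeq2, which model read counts, and Cuffdiff, which compares FPKM. A gene was called when its edgeR p-value, adjusted over all genes by the Benjamini-Hochberg method, was under 0.05; by that rule 0 of the 10 genes were called, against 3.41% of all genes (1.47% higher and 1.95% lower in CDAA_PTS) in the authors' deposited table. DESeq2 also called 0 of the 10, against 4.46% of the genes it gave an adjusted p, and Cuffdiff called 0, against 5.51% of the genes it tested. At an unadjusted p under 0.05, edgeR, DESeq2 and Cuffdiff each had 0 of the 10, whereas edgeR had 14.6% of all genes, in the authors' deposited table. The edgeR adjusted p of the 10 genes lay between 0.69 and 1.00, the DESeq2 value between 0.64 and 1.00 and the Cuffdiff q between 0.76 and 1.00. These values do not show that the levels were equal. The interval given with each gene is built on a DESeq2 estimate that is pulled toward 0, so differences outside it remain possible. Because whole liver was sequenced, fewer cells of a type and less RNA per cell cannot be told apart.

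The deposited values are 1 per gene and group, so no value per rat and no overlap between groups can be given, and the depth of each library is unknown. The mean normalized counts sum to 1.39e+07 over all genes. Hepatocyte markers were strongly expressed, among them Apob at 1307 FPKM in CDAA_PTS, against 1260 FPKM in CDAA (FPKM, fragments corrected for transcript length and library size), and edgeR called 0 of 10 such markers. Of these markers 5 lay above 0 and 5 below, from Apoa1 at an edgeR log2 fold change of -0.45 (adjusted p 0.25) to Tat at 0.44 (adjusted p 0.76). The 9 with a tested FPKM summed to 45293 FPKM in CDAA_PTS, against 40266 FPKM in CDAA. Tf held 21593 FPKM of that sum in CDAA_PTS, against 15748 FPKM in CDAA, while its edgeR log2 fold change was -0.06 (adjusted p 0.94). By edgeR 0 of 10 macrophage and Kupffer cell markers and 0 of 11 vascular, smooth muscle and stellate cell markers were called. At an unadjusted edgeR p under 0.05 the hepatocyte list had 1 gene, the macrophage list 3 and the vascular list 2, while DESeq2 called 0 in each and Cuffdiff called 1, Myh11 of smooth muscle. The macrophage markers summed to 259 FPKM in CDAA_PTS, against 257 FPKM in CDAA, but single genes went both ways, 6 above 0 and 4 below. The 3 with an unadjusted edgeR p under 0.05 were 30% of that list, beside 14.6% of all genes. They were Timd4 and Cd14, with edgeR log2 fold changes of 0.62 (adjusted p 0.12) and 0.33 (adjusted p 0.34), and Cd68, with -0.32 (adjusted p 0.23). The 10 vascular and stellate markers with a tested FPKM summed to 262 FPKM in CDAA_PTS, against 258 FPKM in CDAA. Most of that sum was Col3a1, a fibrillar collagen, at 129 FPKM in CDAA_PTS, against 133 FPKM in CDAA, and Tagln of smooth muscle, at 60.3 FPKM in CDAA_PTS, against 58.5 FPKM in CDAA. The low smooth muscle markers lay further apart: Myh11 stood at 2.03 FPKM in CDAA_PTS, against 0.58 FPKM in CDAA (edgeR log2 fold change 1.81, adjusted p 0.15, authors' deposited table). Acta2 and Cnn1 were also above 0, with edgeR log2 fold changes of 0.57 (adjusted p 0.68) and 3.56 (adjusted p 0.31) in the authors' deposited table, Cnn1 at a mean of only 0.30 CPM. Tagln had an edgeR log2 fold change of 0.29 (adjusted p 0.82). Des, also low, went the other way, at 3.64 FPKM in CDAA_PTS, against 4.29 FPKM in CDAA (edgeR log2 fold change -0.25, adjusted p 0.68). Over the whole vascular and stellate list 7 genes lay above 0 and 4 below. DESeq2 gave no adjusted p for Myh11, Acta2 or Cnn1. The marker genes named here were chosen for mention after their values were seen, and their part in the values of the 10 genes was not tested.

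Catalase, the heme enzyme of peroxisomes, had the highest level of the 10. It stood at 1094 FPKM in CDAA_PTS, against 1030 FPKM in CDAA, and ranked 34th of all genes by mean CPM (counts scaled to library size but not to length) at 2811 CPM. Its locus (ENSRNOG00000008364) spans chromosome 3, bases 93379873 to 93412058, in rn6. The edgeR log2 fold change of Cat in the authors' deposited table was 0.08 (adjusted p 0.92), and its DESeq2 value was 0.07 (SE 0.15). The 95% interval from that DESeq2 estimate ran from 0.86-fold to 1.28-fold.

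**Figure D1:**
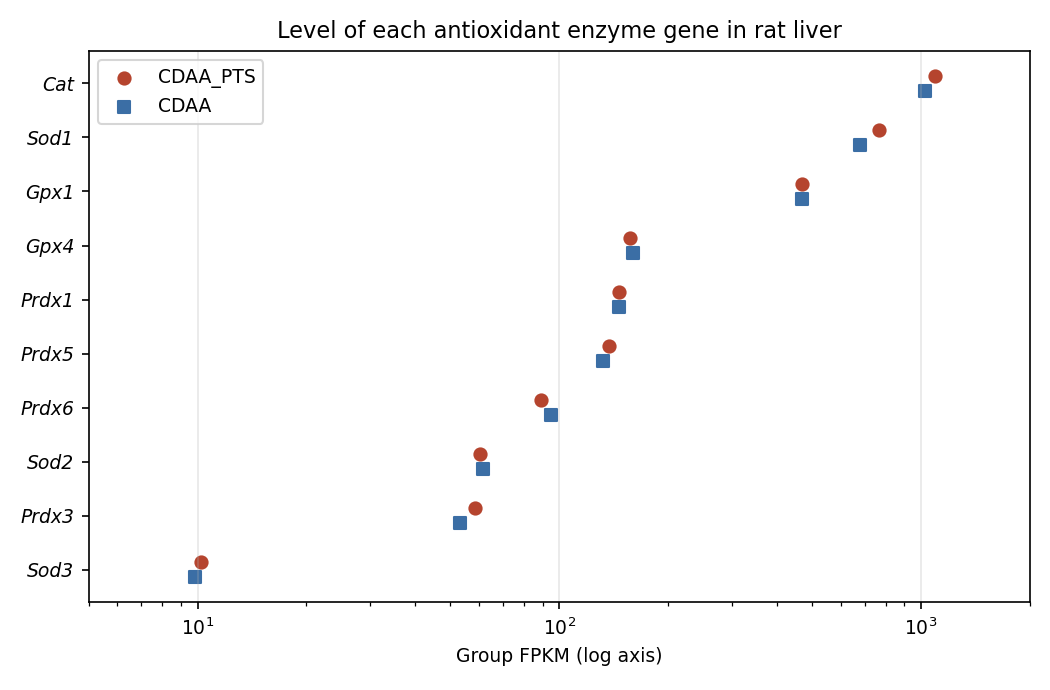
Group FPKM of the 10 genes on a log axis, with CDAA_PTS as circles and CDAA as squares; each point is the authors' single value for 4 rats and has no error bar. The levels run from 1094 FPKM for Cat to 10.2 FPKM for Sod3 in CDAA_PTS, and the symbols of each gene lie almost on top of each other.

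The superoxide dismutases differed widely in level and little between diets. Sod1, the cytosolic copper and zinc enzyme, stood at 764 FPKM in CDAA_PTS, against 680 FPKM in CDAA, second only to Cat. The edgeR log2 fold change of 0.16 (adjusted p 0.69) was the largest of the 10 in the authors' deposited table, and the DESeq2 interval ran from 0.93-fold to 1.31-fold. Sod2, the manganese enzyme of mitochondria, stood at 60.6 FPKM in CDAA_PTS, against 61.4 FPKM in CDAA. Sod2 had an edgeR log2 fold change of -0.03 (adjusted p 0.98) in the authors' deposited table and an interval of 0.85-fold to 1.13-fold. Sod3, the secreted enzyme that binds to the matrix, was the lowest of the 10 genes at 10.2 FPKM in CDAA_PTS, against 9.85 FPKM in CDAA, and the only one below 50 CPM, with a mean of 17.7 CPM. For Sod3 the edgeR log2 fold change was 0.06 (adjusted p 0.94, authors' deposited table) and the interval 0.87-fold to 1.24-fold. Sod1 exceeded Sod2 by 12.6 times in CDAA_PTS and 11.1 times in CDAA. The copper chaperone Ccs, which loads Sod1 with copper, stood at 60.4 FPKM in CDAA_PTS, against 66.7 FPKM in CDAA and was not called (edgeR log2 fold change -0.14, adjusted p 0.78, authors' deposited table).

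Both glutathione peroxidases among the 10 are selenoproteins, which carry selenocysteine at the active site. Gpx1, the main cytosolic form, stood at 469 FPKM in CDAA_PTS, against 470 FPKM in CDAA. Its log2 fold change was the closest to 0 of the 10 in edgeR, at -0.005 in the authors' deposited table (adjusted p 1.00), yet Gpx1 had the largest SE, 0.16, and so an interval of 0.80-fold to 1.24-fold. Gpx4, which reduces lipid hydroperoxides within membranes and restrains ferroptosis, stood at 157 FPKM in CDAA_PTS, against 160 FPKM in CDAA. For Gpx4 edgeR gave -0.05 (adjusted p 0.96) in the authors' deposited table, with an interval of 0.82-fold to 1.16-fold. The deposited locus of Gpx4 is the same as that of its neighbour Sbno2, which was lower in CDAA_PTS (edgeR log2 fold change -0.37, adjusted p 0.047, authors' deposited table). Whether reads of Sbno2 enter the Gpx4 value was not tested. Sbno2 was at 8.35 FPKM in CDAA_PTS, against 10.7 FPKM in CDAA. FPKM is corrected for length, so these values do not give the share of reads that Sbno2 holds at the locus.

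The peroxiredoxins, which use a reactive cysteine to reduce peroxides, ranged in level between Prdx1 and Prdx3, the highest and lowest of the 4. Prdx1, a cytosolic form, stood at 146 FPKM in both CDAA_PTS and CDAA, with an edgeR log2 fold change of -0.01 (adjusted p 1.00, authors' deposited table) and an interval of 0.86-fold to 1.15-fold. Prdx5, found in mitochondria, peroxisomes and cytosol, stood at 138 FPKM in CDAA_PTS, against 132 FPKM in CDAA, with an interval of 0.90-fold to 1.18-fold. Prdx6, which works with glutathione and also has phospholipase activity, stood at 88.9 FPKM in CDAA_PTS, against 94.9 FPKM in CDAA. Prdx6 had the lowest edgeR log2 fold change of the 10, -0.10 (adjusted p 0.78, authors' deposited table), and the smallest SE, 0.10, so that its interval ended at 0.82-fold and 1.07-fold. Prdx3, the mitochondrial form that works with thioredoxin, stood at 58.4 FPKM in CDAA_PTS, against 53.2 FPKM in CDAA. The edgeR log2 fold change of 0.13 (adjusted p 0.72, authors' deposited table) was the second largest, with an interval of 0.93-fold to 1.27-fold. Prdx3 and Sod2, which both act in mitochondria, had similar levels: Sod2 exceeded Prdx3 by 1.04 times in CDAA_PTS and 1.15 times in CDAA.

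By level, the order was Cat, Sod1, Gpx1, Gpx4, Prdx1, Prdx5, Prdx6, Sod2, Prdx3 and Sod3 when FPKM was averaged over the diets. In CDAA_PTS and in CDAA taken alone the order was the same. Without values per rat, no pair of neighbours in that order can be tested; Gpx4 and Prdx1 differed by 1.07 times in CDAA_PTS and 1.10 times in CDAA. Summed by kind of enzyme, the dismutases held 835 FPKM in CDAA_PTS, against 751 FPKM in CDAA, most of it Sod1. The pair of glutathione peroxidases held 626 FPKM in CDAA_PTS, against 630 FPKM in CDAA, and the 4 peroxiredoxins 431 FPKM in CDAA_PTS, against 427 FPKM in CDAA. All 10 genes together held 2986 FPKM in CDAA_PTS, against 2838 FPKM in CDAA, and Cat and Sod1 account for nearly all of that gap.

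How small the differences were can be read against the whole table. The median size of the edgeR log2 fold change, sign left aside, was 0.05 over the 10 genes, against 0.17 over all 15115 genes and 0.12 over the 8428 genes with a mean of at least 10 CPM, in the authors' deposited table. All 10 genes passed that minimum of 10 CPM. The smallest difference called by edgeR anywhere in the authors' deposited table had a size of 0.32, larger than any of the 10. Each of the 10 DESeq2 intervals lay inside 1.5-fold in both directions. So did those of 80.0% of all genes and 88.6% of the genes with at least 10 CPM. The largest SE of any gene was 0.21, so a gene with a DESeq2 value close to 0 fell inside whatever its level. Cnn1, at a mean of 0.30 CPM and an edgeR log2 fold change of 3.56, had an interval of 0.97-fold to 1.25-fold. Lying inside 1.5-fold is therefore no measure of how well a gene was measured. DESeq2 fold changes in this table are pulled toward 0, and the edgeR values of the 10 genes were 1.01 to 1.31 times as large. With both ends of each interval multiplied by that ratio, all 10 stayed inside 1.5-fold, from 0.75-fold at the lowest end to 1.35-fold at the highest. The largest ratio was that of Gpx1, from -0.005 in edgeR and -0.004 in DESeq2, values next to 0. Such a ratio does not measure how far an interval was narrowed, so the stretched intervals cannot secure the 1.5-fold bound.

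**Figure D2:**
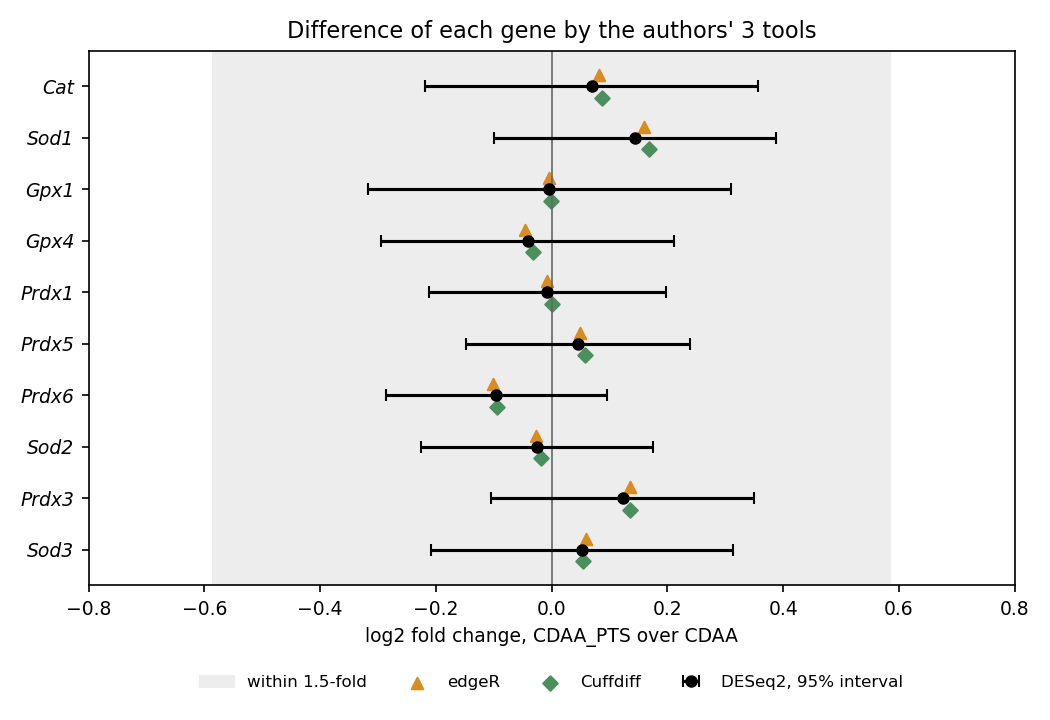
Log2 fold change of CDAA_PTS over CDAA for each of the 10 genes from edgeR (triangles), DESeq2 (circles with 95% intervals) and Cuffdiff (diamonds), with the range within 1.5-fold in grey. All intervals cross 0 and stay within the grey range, and the tools place each gene at almost the same value.

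**Figure D3:**
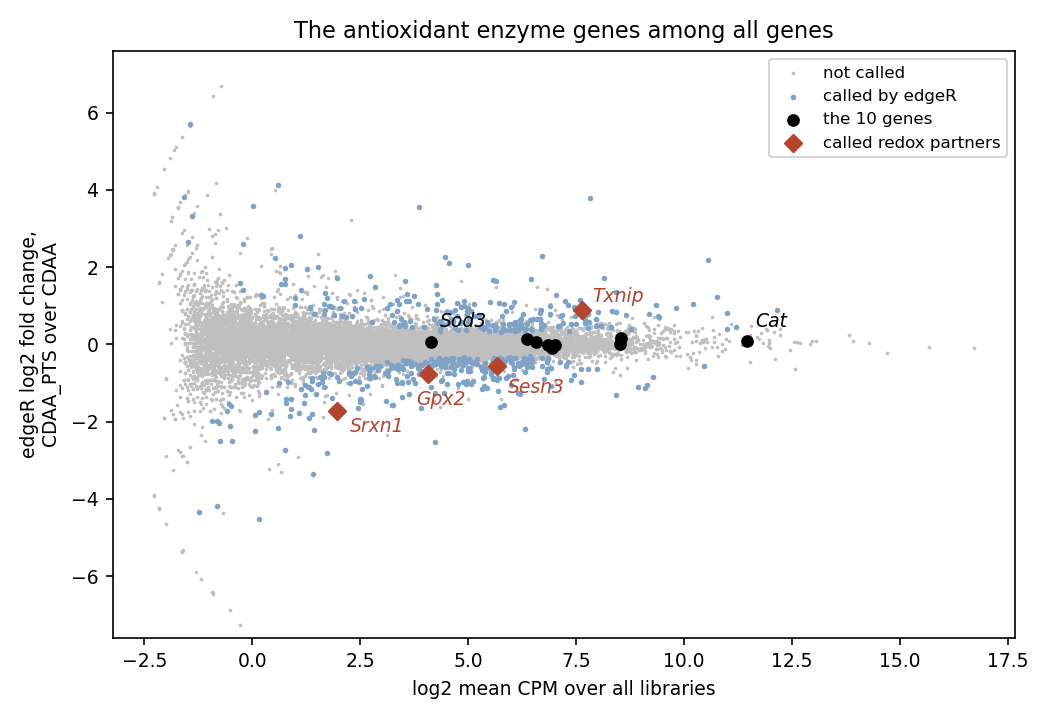
edgeR log2 fold change of CDAA_PTS over CDAA against log2 mean CPM for all 15115 genes, with the 516 called genes in blue, the 10 genes in black and 4 called redox partners as diamonds. The 10 genes lie along 0 from Sod3 at 4.14 to Cat at 11.46 on the log2 CPM axis.

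Around these enzymes, 117 other redox genes in 8 lists were measured, and 3 of them rose, 4 fell and 110 did not pass. The 7 calls are 5.98% of the 117, beside 3.41% of all genes; no test of that difference was run. Their median edgeR log2 fold change was -0.01, as against 0.01 over all genes, in the authors' deposited table. Among 14 further dismutase and peroxidase family genes, 1 fell and 13 did not pass. The gene that fell was Gpx2, the glutathione peroxidase best known from the gut lining, at 13.6 FPKM in CDAA_PTS, against 23.0 FPKM in CDAA. Gpx2 had an edgeR log2 fold change of -0.77 (adjusted p 0.037) and, in DESeq2, one of -0.58 (SE 0.18) in the authors' deposited table. Gpx1 exceeded Gpx2 by 34.6 times in CDAA_PTS and 20.4 times in CDAA, so the form that fell was a small part of the glutathione peroxidase mRNA. Gpx3, the secreted plasma form, stood at 31.8 FPKM in CDAA_PTS, against 35.6 FPKM in CDAA and was not called (edgeR adjusted p 0.84, authors' deposited table). The other peroxiredoxins were not called either: Prdx2 stood at 96.1 FPKM in CDAA_PTS, against 105 FPKM in CDAA, and Prdx4, the form of the endoplasmic reticulum, at 132 FPKM in CDAA_PTS, against 129 FPKM in CDAA (edgeR adjusted p 0.67 and 0.96, authors' deposited table). Prdx2 and Cat are abundant in red blood cells, and the 7 measured rows of erythroid markers held 0 calls by edgeR, DESeq2 or Cuffdiff and 0 with an unadjusted edgeR p under 0.05, with a median edgeR log2 fold change of 0.37, all 7 above 0, in the authors' deposited table. The 6 erythroid rows with a tested FPKM summed to 602 FPKM in CDAA_PTS, against 495 FPKM in CDAA, and their part in the values of Cat and Prdx2 was not tested.

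Of 17 genes listed as the thioredoxin, glutaredoxin and sulfiredoxin system, 1 rose, 2 fell and 14 did not pass, so the calls went both ways. The list takes in genes that recycle peroxiredoxins and also others, such as Txnip and the sestrins. Over all genes 1.47% were called higher and 1.95% lower in CDAA_PTS, and whether the list differs from that was not tested. Srxn1, the sulfiredoxin that restores overoxidized peroxiredoxins such as Prdx1 and Prdx3, fell to 2.42 FPKM in CDAA_PTS, against 8.33 FPKM in CDAA. The edgeR log2 fold change of Srxn1 was -1.73 (adjusted p 0.00058) in the authors' deposited table, and its DESeq2 value was -0.96 (SE 0.21). Prdx1 exceeded Srxn1 by 60.6 times in CDAA_PTS and 17.6 times in CDAA. Txnip, which binds thioredoxin and limits it, rose to 87.7 FPKM in CDAA_PTS, against 47.4 FPKM in CDAA. Txnip had an edgeR log2 fold change of 0.89 (adjusted p 3.6e-07) in the authors' deposited table. Sesn3, a sestrin, fell to 13.1 FPKM in CDAA_PTS, against 19.2 FPKM in CDAA (edgeR log2 fold change -0.55, adjusted p 0.0042, authors' deposited table). The thioredoxins Txn1 and Txn2, chosen for mention after their values were seen, were not called: Txn1 stood at 613 FPKM in CDAA_PTS, against 620 FPKM in CDAA, and the mitochondrial Txn2 at 78.0 FPKM in CDAA_PTS, against 80.5 FPKM in CDAA. Txnrd1, the cytosolic thioredoxin reductase, stood at 60.3 FPKM in CDAA_PTS, against 67.9 FPKM in CDAA (edgeR adjusted p 0.71, authors' deposited table). Whether the changes of Srxn1, Txnip, Sesn3 and Gpx2 differ from those of the 10 enzymes was not tested as a difference between genes.

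**Figure D4:**
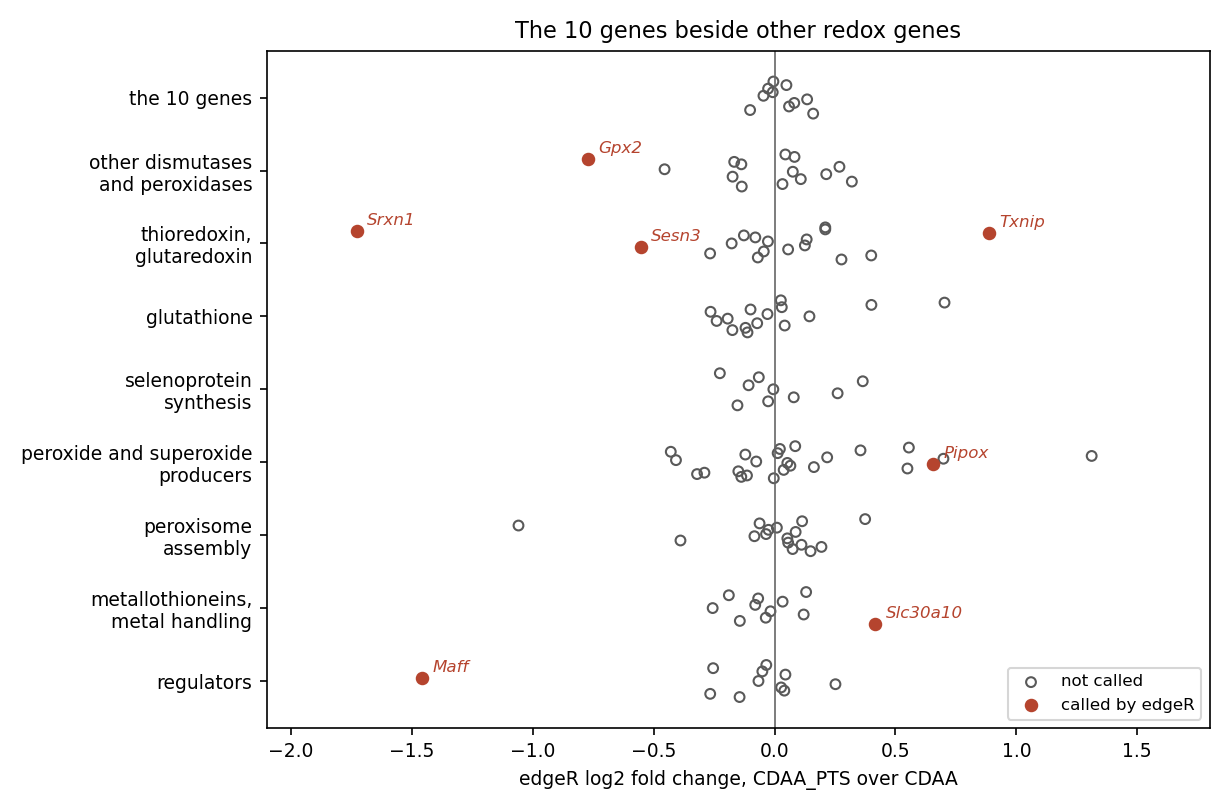
edgeR log2 fold change of CDAA_PTS over CDAA for the 10 genes (top line) and the 8 lists of other redox genes, with called genes filled and named. The 10 genes span -0.10 to 0.16, while 7 genes of the other lists are called, from Srxn1 at -1.73 to Txnip at 0.89.

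Glutathione and selenium supply, on which Gpx1 and Gpx4 depend, showed no edgeR call, beside calls for 3.41% of all genes. An unadjusted edgeR p under 0.05 was found for 14.6% of all genes. Whether these lists differ from those shares was not tested. Of 15 genes that make or reduce glutathione, 0 were called by edgeR, 2 had an unadjusted edgeR p under 0.05, DESeq2 called 0 and Cuffdiff called 1, in the authors' deposited table. That gene, named after its values were seen, was Ggt1, an enzyme that breaks down glutathione outside the cell (Cuffdiff q 0.0088, edgeR adjusted p 0.33, authors' deposited table). Glutathione reductase, Gsr, stood at 90.8 FPKM in CDAA_PTS, against 92.0 FPKM in CDAA (edgeR adjusted p 0.98, authors' deposited table). The smallest p of that list belonged to Ggct, an enzyme of glutathione breakdown, with an edgeR log2 fold change of 0.40 (adjusted p 0.18, authors' deposited table). Of 9 genes that make or carry selenoproteins, 0 were called by edgeR, 1 had an unadjusted edgeR p under 0.05, DESeq2 called 1 and Cuffdiff called 0. That gene was Sepsecs, the synthase that makes selenocysteine on its tRNA, at 27.5 FPKM in CDAA_PTS, against 21.3 FPKM in CDAA. Sepsecs had an edgeR log2 fold change of 0.36 (adjusted p 0.052) and DESeq2 did call it (adjusted p 0.022, authors' deposited table).

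Other enzymes produce peroxide or superoxide, the substrates of the 10. Of 24 such genes, 1 rose and 23 did not pass in edgeR, a share of 4.17% that is near the 3.41% of all genes, while DESeq2 called 3 and Cuffdiff 2, in the authors' deposited table. Pipox, a peroxisomal oxidase of pipecolic acid and sarcosine, rose to 60.0 FPKM in CDAA_PTS, against 37.9 FPKM in CDAA (edgeR log2 fold change 0.66, adjusted p 0.00066, authors' deposited table). Aox1 and Cybb, the other genes called by DESeq2, and Acox2, the other gene called by Cuffdiff, were chosen for mention after their values were seen. Aox1, aldehyde oxidase, had an edgeR log2 fold change of 0.70 (adjusted p 0.051), and Cybb, the phagocyte oxidase subunit, of -0.32 (adjusted p 0.11), in the authors' deposited table. Acox2, a peroxisomal oxidase of bile acid intermediates, stood at 116 FPKM in CDAA_PTS, against 79.1 FPKM in CDAA (Cuffdiff q 0.0099, edgeR log2 fold change 0.55, adjusted p 0.20, authors' deposited table). Of 16 peroxisome assembly genes, 0 were called by edgeR, DESeq2 or Cuffdiff, and 2 had an unadjusted edgeR p under 0.05. The smallest p there was that of Pex5, the import receptor that brings catalase into peroxisomes, at only 0.27 FPKM in CDAA_PTS, against 0.60 FPKM in CDAA and a mean of 1.02 CPM (edgeR log2 fold change -1.06, adjusted p 0.18, authors' deposited table).

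Metal handling and the known regulators complete the surroundings of the 10 genes. Over all genes edgeR called 1.47% higher and 1.95% lower in CDAA_PTS, and whether either list differs from that was not tested. Of 11 metallothionein and metal transport genes, 1 rose and 10 did not pass. It was Slc30a10, a manganese exporter, at 12.2 FPKM in CDAA_PTS, against 9.09 FPKM in CDAA (edgeR log2 fold change 0.42, adjusted p 0.034, authors' deposited table). Sod2, which needs manganese, has its mRNA values given above, and a link between Slc30a10 and Sod2 was not tested. Of 11 regulators, 1 fell and 10 did not pass. Maff, a small Maf protein that pairs with NRF2, fell to 2.18 FPKM in CDAA_PTS, against 6.10 FPKM in CDAA (edgeR log2 fold change -1.46, adjusted p 6.9e-05, authors' deposited table). Nfe2l2, which encodes NRF2, the main activator of antioxidant genes, stood at 76.7 FPKM in CDAA_PTS, against 74.0 FPKM in CDAA (edgeR log2 fold change 0.04, adjusted p 0.98, authors' deposited table).

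NRF2 pairs with small Maf proteins on antioxidant response elements, whose core is TGACNNNGC, and promoters are shown here because a match lies near the start of Gpx2, which fell, and near the starts of 3 enzymes that were not called. RefSeq promoter sequences of assembly GRCr8, from 250 bases before to 50 after each gene start, were found for 8 of the 10 genes; those of Sod3 and Prdx6 were not used here. A match on either strand was present for Sod2, Prdx1 and Prdx5 among these 8, and in 12.1% of all 33469 promoters of the table. The leftmost base of the match stood at -135 from the start in Prdx1, -35 in Sod2, -1 in Prdx5 and -13 in Gpx2, all with the core on the opposite strand. Srxn1 and Sesn3 had no match of these exact letters in this window, and Txnip was not used here. The other called redox genes, Pipox, Slc30a10 and Maff, were not searched. The Srxn1 window does hold TGAGTCAGC, a near match that a search for TGACNNNGC leaves out. Other spellings of the element were not searched in any promoter, so no lack of an element can be read from these results. Capitals mark the match in each sequence, which reads 5′ to 3′ along the strand of the gene.
Gpx2, chr6:101229984-101230283, minus strand: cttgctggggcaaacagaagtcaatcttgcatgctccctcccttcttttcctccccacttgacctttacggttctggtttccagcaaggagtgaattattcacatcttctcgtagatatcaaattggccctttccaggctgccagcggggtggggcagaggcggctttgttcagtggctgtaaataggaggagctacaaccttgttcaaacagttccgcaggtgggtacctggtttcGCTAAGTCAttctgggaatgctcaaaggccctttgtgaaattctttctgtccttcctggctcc
Prdx1, chr5:135383656-135383955, plus strand: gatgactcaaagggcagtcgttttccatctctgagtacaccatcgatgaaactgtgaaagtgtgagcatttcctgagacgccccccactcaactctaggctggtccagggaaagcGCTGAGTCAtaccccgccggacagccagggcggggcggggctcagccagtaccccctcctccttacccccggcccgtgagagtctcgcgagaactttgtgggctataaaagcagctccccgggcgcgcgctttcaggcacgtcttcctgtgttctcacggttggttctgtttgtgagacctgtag
Sod2, chr1:50050119-50050418, minus strand: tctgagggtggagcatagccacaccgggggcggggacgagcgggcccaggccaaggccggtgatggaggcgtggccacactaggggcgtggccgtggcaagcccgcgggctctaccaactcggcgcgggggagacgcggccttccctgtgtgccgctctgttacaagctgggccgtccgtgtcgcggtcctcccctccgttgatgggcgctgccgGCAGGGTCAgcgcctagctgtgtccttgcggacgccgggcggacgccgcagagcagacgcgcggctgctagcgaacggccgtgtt
Prdx5, chr1:213531978-213532277, minus strand: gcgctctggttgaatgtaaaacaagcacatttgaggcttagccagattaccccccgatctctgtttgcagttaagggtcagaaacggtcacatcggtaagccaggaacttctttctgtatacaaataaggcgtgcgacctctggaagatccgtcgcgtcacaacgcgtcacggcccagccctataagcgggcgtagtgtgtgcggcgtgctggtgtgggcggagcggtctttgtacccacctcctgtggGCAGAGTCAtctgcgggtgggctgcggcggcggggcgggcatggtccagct
A match of these letters describes the sequence and is no evidence of binding. Beside it stand edgeR log2 fold changes of -0.77 for Gpx2 and of -0.01, -0.03 and 0.05 for Prdx1, Sod2 and Prdx5 in the authors' deposited table.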

How the data were processed

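Liver RNA of 4 CDAA_PTS and 4 CDAA rats was taken up in Trizol and sequenced from TruSeq RNA libraries (Illumina), per the labels' protocols. The submitters' processing notes name build rn6 and, with no version, TopHat2, Cufflinks, edgeR, DESeq2 and FastQC; how reads were counted, by strand or not, and with which filters and designs, is not given, nor is the treatment of reads that fit several places. The deposited table has 3 blocks, from edgeR, DESeq2 and Cuffdiff, per the file headers. The authors' DESeq2 block gives a signal (mean normalized count), log2 fold changes with standard errors, a Wald score and p-values. The authors' edgeR block gives log2 fold changes, log2 mean CPM and p-values. The authors' Cuffdiff block gives 1 FPKM value per group, a log2 ratio, a test score and p-values with q-values. Every fold change has CDAA_PTS on top. There is no count per library, so no count model could be run here and the authors' edgeR statistics are the main test, with DESeq2 and Cuffdiff as alternatives; p-values measure spread between rats only as those models estimated it. Rats shared cages in pairs, and cage mates are not named.

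Intervals are the authors' DESeq2 estimate plus and minus the normal 95% quantile times its standard error, computed with pandas 2.3.3 and scipy 1.17.1 in Python 3.11.15. Benjamini-Hochberg values were computed again over genes with at least 1 or 10 CPM. These steps were tested on simulated data, as a check of the arithmetic. That test does not show that the intervals cover the true differences, because the deposited DESeq2 estimates are shrunken, as described above. The genes and lists were chosen with earlier results of these data known, and named genes were the 10 genes, the called genes of each list, otherwise its gene with the smallest p, and 9 set partners, of which 1 is not reported here. No list test was run. Loci are those of the deposited table in rn6; promoters are RefSeq sequences of GRCr8, matched by symbol.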

Additional observations from a re-analysis of the deposited data

How the results depend on the processing

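For the 10 enzyme genes, 49 of 50 alternative values of the log2 fold change kept their direction and stayed uncalled under DESeq2, Cuffdiff, either CPM minimum and centring on the median of all genes. The exception was Prdx1, whose Cuffdiff log2 ratio was 0.00097 in place of -0.0078, both next to 0. The count of 49 says little by itself. A CPM minimum leaves the log2 fold change as it is and only changes its adjusted p. Centring shifts every value by the same 0.006 and keeps its call. Only DESeq2 and Cuffdiff give separate estimates. The number of enzymes called was 0 in every alternative run, including adjusted p under 0.01 and under 0.1. Selenoprotein genes had 1 call in place of 0 with DESeq2, with a minimum of 1 or 10 CPM and at adjusted p under 0.1. Peroxide producers had 3 calls in place of 1 with DESeq2, and 2 with Cuffdiff, with either CPM minimum and at adjusted p under 0.1. Glutathione genes had 1 call in place of 0 with Cuffdiff. At adjusted p under 0.01 the further peroxidases and the metal genes had 0 calls in place of 1, and with a minimum of 10 CPM the regulators had 0, since Maff (8.50 CPM) lies below it. The thioredoxin, glutaredoxin and sulfiredoxin genes had 2 calls in place of 3 at that minimum, since Srxn1 (3.89 CPM) lies below it too. Ranked by mean CPM or by mean normalized count, which are not corrected for length, Sod2 came 4th, Prdx6 5th, Gpx4 6th, Prdx1 7th and Prdx5 8th; the other ranks were as by FPKM. Pseudocounts of 0.1 and 1 FPKM moved no log2 ratio by more than its SE. The stretched interval was chosen after seeing the data. No paired analysis was possible because the table holds no values per rat, and for the same reason no rat could be left out. Depth per library is unknown.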
